A study of Mus musculus with 12 samples.

Results

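Fibroblasts, vascular smooth muscle cells and pericytes make up most of the supporting tissue of the heart, and 33 genes that mark them were followed here in whole hearts of mice whose cardiomyocytes lack both corticosteroid receptors. The genes were taken by name: every transcript probe whose gene name, or older synonym such as Ctgf for Ccn2, was one of the 33. All 33 were on the array, with 53 probes, of which 47 passed the filter on dim spots, and all 33 were among the 18257 genes tested. Of these, 18 mark fibroblasts and their matrix, 4 are transforming growth factor beta (TGF-β) ligands and the matrix protein Ccn2, 7 mark smooth muscle and 4 mark pericytes.

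The hearts came from 12 male mice on a C57BL/6 background. In cardioGRMRdKO mice, called knockout here, a Cre recombinase under the cardiomyocyte promoter αMHC acts on floxed alleles of Nr3c1, which encodes the glucocorticoid receptor, and Nr3c2, which encodes the mineralocorticoid receptor. The control littermates, called dflox, carried the same floxed alleles without Cre. Both genotypes were sampled at 1 month and again, in other mice, at 2 months, which gave 4 groups of 3 hearts and 1 Agilent one-colour array per heart. No group carried Cre without floxed alleles, so the loss of the receptors and the presence of Cre cannot be told apart. Because αMHC-Cre acts in cardiomyocytes, the stromal cells that these genes mark are not the cells in which the receptors are deleted.

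Fibroblasts produce collagens, proteoglycans and matricellular proteins, and TGF-β ligands are known to drive them towards a contractile, matrix-secreting state in cardiac fibrosis. Smooth muscle cells line the coronary arteries and owe their contractile genes to serum response factor and its coactivator myocardin, the product of Myocd, which is also present in cardiomyocytes. Pericytes wrap the capillaries and depend on PDGF signalling through the receptor encoded by Pdgfrb. Levels are given as log2 intensity relative to the 75th percentile of the same array, so 0 is that percentile. A level describes 1 probe and is not compared between genes. In whole hearts, fewer cells of a type and less RNA per cell cannot be told apart.

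The results below turn on a small set of probes. The first 30 bases of each, 5′ to 3′ as printed on the array, are shown to identify what was measured, because Myocd, Tagln and Sparc were each read by a pair of probes that could be set against each other. Positions are on mouse build mm7, and exons and UTRs are not given for that build.
Myocd, brighter probe, chr11:65258470-65258529, minus strand: gtagttttccaaacgagaacacaattgcac
Myocd, dimmer probe, chr11:65260346-65260405, minus strand: aagtcttattgaattctcacagccccatcg
Tagln, brighter probe, chr9:45888137-45888196, minus strand: ctttgaaggagacccagcccagcctctaca
Tagln, dimmer probe, chr9:45888956-45889015, minus strand: cagtttggctgtgaccaaaaacgatggaaa
Lmod1, chr1:135256519-135256577, plus strand: agcagacattttcttcacatcacctgctgc
Myh11, chr16:13741638-13744562, minus strand: accaggagaggaaacgaggcttcatttgtt
Fstl1, chr16:37543886-37543945, plus strand: agattttcctgcataggaaagtgtggaatg
Sparc, brighter probe, chr11:55352704-55355361, minus strand: gtacatcttccctgtccactggcagtttgg
Sparc, dimmer probe, chr11:55351268-55351327, minus strand: tgcaaactctcacagcgatgtgaagagctt
The positions of the Myh11 probe and of the brighter Sparc probe span more genome than the 60 bases of a probe.

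The 12 arrays had 63.7 to 71.9% of their transcript spots well above background. The targeted gene Nr3c1 was lower in the knockout hearts of 2 months, at 1.44, 1.15 and 1.18 against 2.51, 2.18 and 2.39 (log2 difference −1.10, SE 0.137, limma adjusted p = 0.00565). At 1 month the 2 knockout hearts with a usable spot were at 1.35 and 1.51 and the 2 dflox hearts at 2.27 and 2.05 (−0.73, limma adjusted p = 0.119). Nr3c2 was read by a dim probe, at −4.49 to −2.64 over the hearts, and overlapped between genotypes at both ages. The labels do not say which exons are deleted, so a probe outside them would check nothing. The arrays lay on 3 slides. The 1-month dflox arrays all had an outer place and the 1-month knockout arrays all an inner one, and for this age the effects of place and genotype cannot be told apart. All 33 member genes were well above background in every heart with a usable spot, and Dcn and Mgp had no usable spot in knockout 2-month replicate 3.

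The hearts also differed in RNA of airway epithelium, a tissue that lies next to the heart and is no part of it. Of 18 airway markers, 13 were well above background on all 12 arrays, none was below it on every array, and the mean log2 level of the 15 with complete values divided the hearts. It stood at 0.86, 2.01 and 2.00 in the dflox hearts at 1 month and at −1.88, −3.02 and −3.49 in the knockout hearts of that age. At 2 months it was −1.64, −3.34 and 2.34 in dflox hearts and 2.00, −3.43 and 2.01 in knockout hearts. At 1 month the genotypes therefore did not overlap in airway signal, and at 2 months both genotypes held hearts with high and low signal. The mean of 11 cartilage markers followed the same order of high and low at 1 month, from −1.74 to −1.10 in dflox and −3.02 to −2.53 in knockout hearts. Airways contain smooth muscle, so these values are set beside the smooth muscle results.

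**Figure D1:**
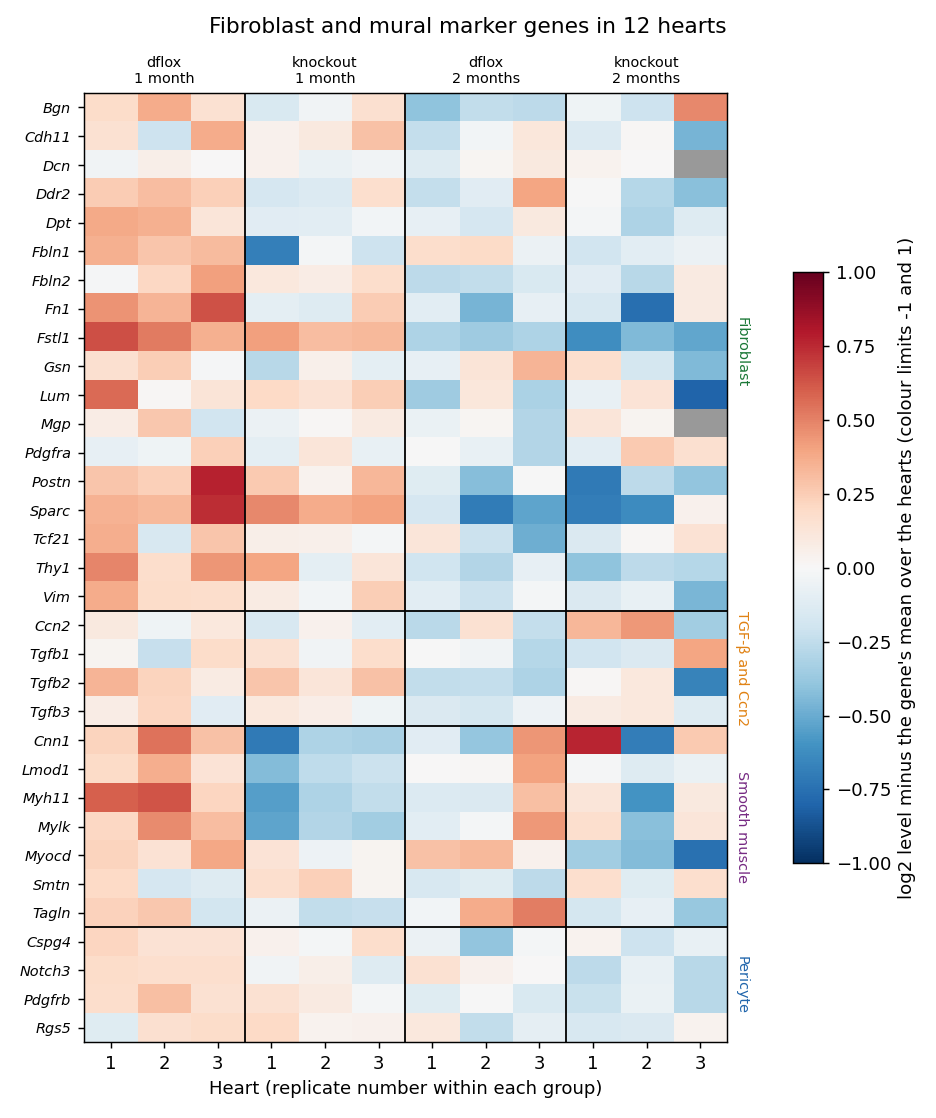
Log2 level of each of the 33 genes (rows, grouped by the cell type they mark) in each of the 12 hearts (columns, grouped by genotype and age), minus the gene's mean over the hearts; colour runs from −1 (blue) to 1 (red) and grey marks a spot without a usable value. Most fibroblast rows are red in the dflox 1-month columns and blue or pale in the 2-month columns, while the smooth muscle rows of Cnn1, Myh11 and Mylk differ from heart to heart at 2 months.

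The genotypes were first compared at 1 month. None of the 33 genes passed the test, where 0.98% of all genes did, and 6 of 33 had an unadjusted p under 0.05, against 9.4% of all genes. The differences were nevertheless mostly on one side of 0: 28 of 33 genes were lower in knockout hearts, including 17 of 18 fibroblast genes, 6 of 7 smooth muscle genes and 3 of 4 pericyte genes, where 50.3% of all genes tested were. In 11 of 33 genes every knockout heart was below every dflox heart, which held for 9.66% of all genes, and none of the 33 showed the opposite, against 8.98% of all genes. The median difference was −0.53 for smooth muscle, −0.15 for fibroblast and −0.12 for pericyte genes, and −0.00 both for the TGF-β group and over all genes tested. Markers of other cells of the heart leaned the same way at 1 month, so the lean is not particular to the 33 genes. Lower in knockout hearts were 12 of 12 epicardial, 11 of 12 endothelial and 11 of 14 cardiomyocyte genes. So were 8 of 8 adipocyte and 8 of 9 atrial genes, but their mean levels were low in knockout replicate 1 only. For adipocyte markers that heart was at −0.64, and replicates 2 and 3 (2.27, 2.21) exceeded every dflox heart (1.76 to 2.19). For atrial markers it was at 2.6, and replicates 2 and 3 (3.86, 3.71) fell inside the dflox range (3.69 to 3.91). Of the macrophage markers 1 of 15 was lower, and of the lymphocyte markers 2 of 8.

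The smooth muscle genes gave the widest differences at 1 month. Myh11, the smooth muscle myosin heavy chain, stood at 2.39, 2.42 and 2.00 in dflox and 1.24, 1.48 and 1.54 in knockout hearts. No knockout heart reached the dflox range, and the difference of −0.85 (SE 0.215, 1.80-fold lower) did not pass the test (limma adjusted p = 0.128). Cnn1, which encodes the actin-binding protein calponin, was at 3.45, 3.77 and 3.52 against 2.52, 2.92 and 2.90 (−0.80, SE 0.332, limma adjusted p = 0.467). Mylk, the myosin light chain kinase that starts smooth muscle contraction, was at 2.66, 2.93 and 2.76 against 1.93, 2.16 and 2.11 (−0.72, SE 0.186, limma adjusted p = 0.139). In both genes the lowest dflox heart lay above the highest knockout heart. Lmod1, the smooth muscle leiomodin that nucleates actin filaments, was at 1.22, 1.40 and 1.17 against 0.60, 0.78 and 0.82 (−0.53, SE 0.127, limma adjusted p = 0.105). It too left a gap between the genotypes. Smtn, which encodes smoothelin, was the exception among the 7, with overlapping groups and a difference of 0.17.

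The dflox hearts that were high in Myh11, Cnn1 and Mylk at 1 month were also the hearts high in airway markers. With the airway marker mean as a covariate, the 1-month difference was −0.44 for Myh11, −0.05 for Cnn1, −0.32 for Mylk and −0.37 for Lmod1, and none of these passed the test. At 1 month the effects of airway signal and genotype cannot be told apart. These values therefore rest on an airway slope set mainly by the mixed hearts of 2 months. At 2 months, where airway signal was mixed within each genotype, Myh11 was at 1.91, 1.19 and 1.89 in knockout hearts and at 1.64, 1.64 and 2.09 in dflox hearts. The highest Myh11 level at that age was in dflox replicate 3, the dflox heart with high airway signal, and the lowest in knockout replicate 2, the knockout heart with low signal. Cnn1 was at 3.99, 2.53 and 3.49 in knockout hearts and at 3.11, 2.84 and 3.67 in dflox hearts, with the same knockout heart lowest. Slide 1 held 1 heart of each genotype at 2 months, and there the difference was 0.24 for Myh11, 0.37 for Cnn1 and 0.22 for Mylk. Slide 3 held 1 knockout and 2 dflox hearts, and there it was −0.68, −0.72 and −0.63. The knockout heart had high airway signal on slide 1 and low signal on slide 3. The part of airway tissue in the 1-month differences was not tested beyond these values.

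**Figure D2:**
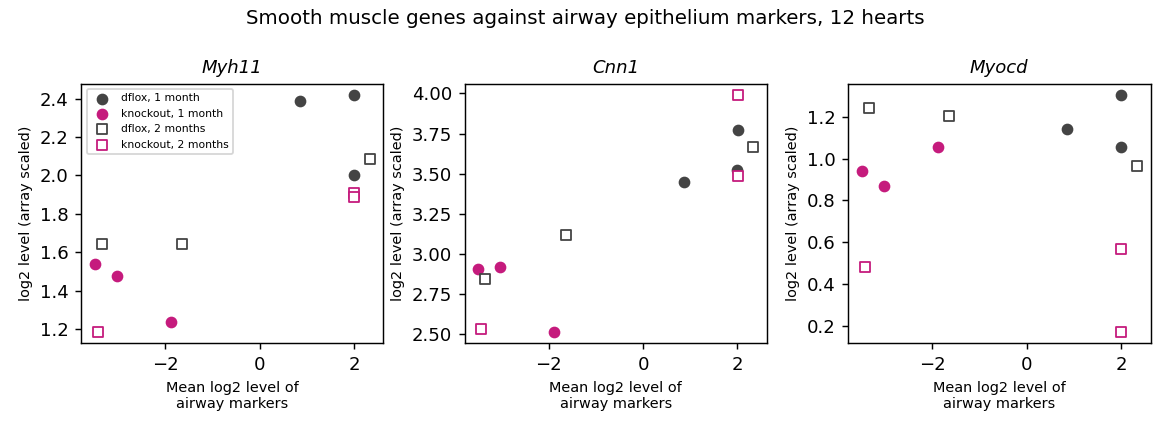
Log2 level of Myh11, Cnn1 and Myocd (vertical axes) against the mean log2 level of 15 airway epithelium markers (horizontal axis) in 12 hearts; grey points are dflox and pink points knockout hearts, filled circles 1 month and open squares 2 months. Myh11 and Cnn1 are higher in hearts to the right of the plot, and the 3 knockout hearts of 2 months lie lowest for Myocd on both sides of it.

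Of the fibroblast genes, Fbln1, Dpt, Fn1 and Ddr2 did not overlap between genotypes at 1 month. Fbln1, which encodes the basement membrane and elastic fibre protein fibulin 1, was at 2.69, 2.62 and 2.65 in dflox and 1.66, 2.31 and 2.13 in knockout hearts (−0.62, SE 0.155, limma adjusted p = 0.125). The 3 dflox hearts lay close together, and knockout replicate 1 was the lowest of all 12 hearts. Without that heart the difference was −0.43. The same heart was the lowest of the 12 in its mean level of 8 adipocyte markers (−0.64, against 1.76 to 2.27 in the other hearts of 1 month), of 7 atrial markers (2.6, against 3.69 to 3.91) and of 12 epicardial markers (−1.45, against −0.94 to −0.34), and the part of these tissues in its low Fbln1 was not tested. A dimmer Fbln1 probe gave −0.55 at this age. Dpt, which encodes the collagen-binding protein dermatopontin, differed by −0.37, the fibronectin gene Fn1 by −0.47 and the collagen receptor gene Ddr2 by −0.31, and the smallest adjusted p among them was 0.267. With the airway mean as a covariate the difference was −0.77 for Fbln1, −0.20 for Dpt, −0.08 for Fn1 and −0.11 for Ddr2, so it was wider for the first and narrower for the other 3. As for the smooth muscle genes, the effects of airway signal and genotype cannot be told apart at this age. The fibroblast lineage markers Pdgfra, the PDGF receptor alpha, and Tcf21, a transcription factor of epicardium-derived fibroblasts, overlapped between genotypes at −0.06 (95% interval −0.36 to 0.25) and −0.13 (−0.52 to 0.26). The abundant matrix genes Dcn (decorin), Lum (lumican) and Mgp (matrix Gla protein) differed by −0.03, −0.04 and −0.04. Cdh11, the fibroblast cadherin, was the 1 fibroblast gene above 0, at 0.04.

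The pericyte genes showed small differences at 1 month. Notch3, the Notch receptor of mural cells, was at 2.20, 2.19 and 2.19 in dflox and 1.99, 2.08 and 1.89 in knockout hearts, a difference of −0.21 (SE 0.0959, limma adjusted p = 0.556). The groups did not overlap and the dflox hearts were nearly equal. Pdgfrb differed by −0.14 without overlap. Rgs5, a regulator of G-protein signalling that is abundant in pericytes, differed by 0.02 (95% interval −0.27 to 0.30), and the proteoglycan gene Cspg4, known as NG2, by −0.11. Both overlapped between genotypes.

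At 2 months 1 of the 33 genes passed the test, where 2.31% of all genes did. Myocd, the smooth muscle and cardiomyocyte coactivator, stood at 0.57, 0.48 and 0.17 in the knockout hearts and at 1.21, 1.24 and 0.96 in the dflox hearts. Every knockout heart was below every dflox heart of either age. Myocd fell 1.66-fold, a log2 difference of −0.73 (SE 0.132, 95% interval −1.02 to −0.44, n = 3 and 3, limma adjusted p = 0.0182). Its dimmer probe gave −0.62 (limma adjusted p over probes = 0.0360), with knockout hearts at −0.49, −0.54 and −0.53 and dflox hearts at −0.11, 0.32 and 0.08. The pair of probes thus separated the genotypes in the same direction without overlap. Of the cardiomyocyte markers 13 of 14 were also lower in knockout hearts at this age, where 63% of all genes were. Their median difference was −0.18, and the part of cardiomyocyte RNA in the Myocd difference was not tested.

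With the airway mean as a covariate the 2-month Myocd difference was −0.70 (limma adjusted p = 0.0317), and within slides 1 and 3 it was −1.03 and −0.62. At 1 month the Myocd levels were 1.06, 0.87 and 0.94 in knockout hearts, just below the 1.14, 1.06 and 1.30 of dflox hearts. The 1-month difference of −0.21 (SE 0.132) did not pass the test (limma adjusted p = 0.780), and the dimmer probe gave −0.32. It was −0.34 with the airway covariate and −0.44 with place on the slide as one, and neither passed the test. At 1 month neither covariate can be told apart from genotype, so both values lean on the hearts of 2 months. The 2-month effect minus the 1-month effect was −0.52 (95% interval −0.93 to −0.10), which did not pass the test across all genes either (limma adjusted p = 0.934) and was −0.36 with the airway covariate. Averaged over the ages Myocd fell by 0.47 (SE 0.0935, limma adjusted p = 0.0176). The call at 2 months was lost when arrays were scaled to their median (−0.61, limma adjusted p = 0.139), when dim probes were kept, when only the groups compared were fitted, and without dflox 2-month replicate 1 or replicate 2.

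**Figure D3:**
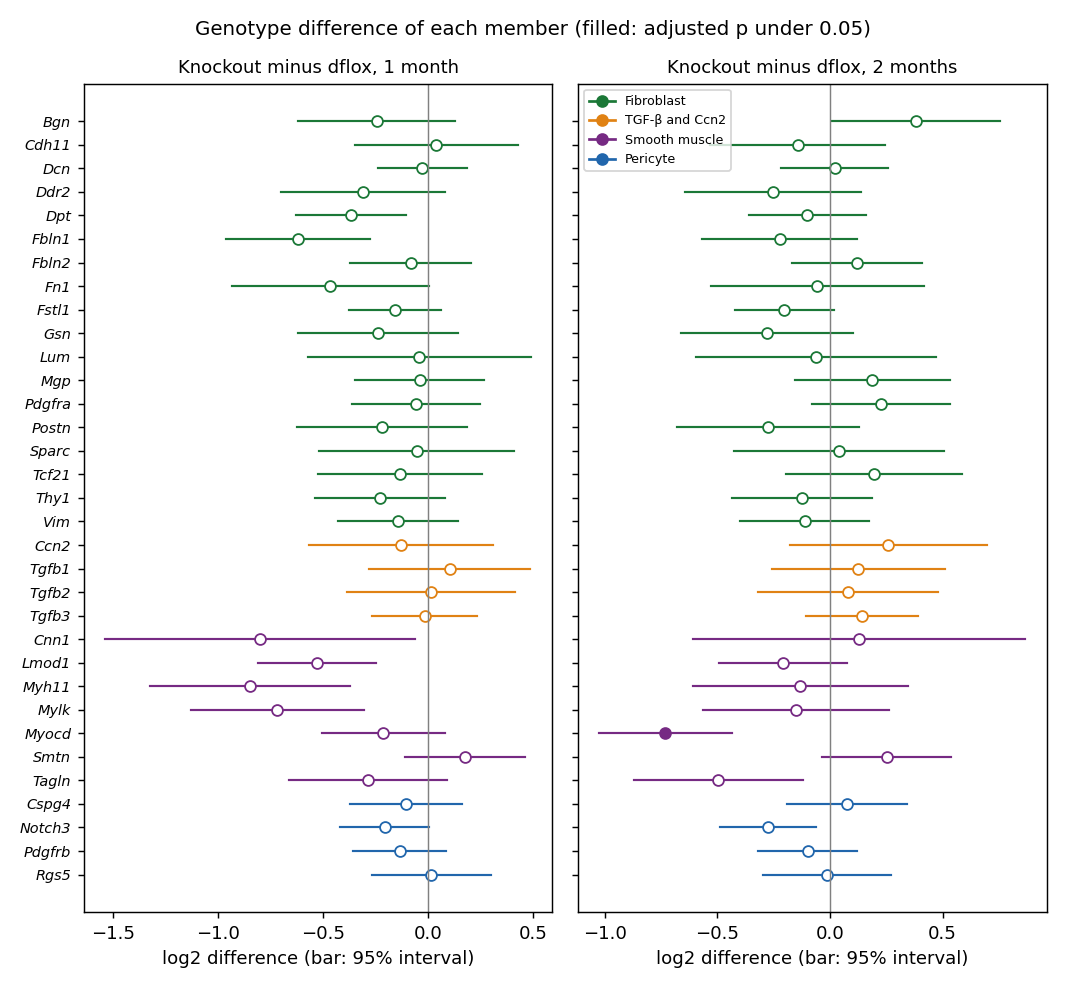
Log2 difference, knockout minus dflox, for each of the 33 genes at 1 month (left) and 2 months (right), with 95% intervals from limma as bars; colour marks the cell type and a filled point an adjusted p under 0.05. The 1 filled point is Myocd at 2 months (−0.73), and at 1 month 28 of the 33 points lie left of 0.

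The smooth muscle genes, Myocd included, were spread to both sides of 0 at 2 months. Of these 5 of 7 were lower, where 63% of all genes were, and the median was −0.15, against −0.10 over all genes. Tagln, which encodes transgelin (SM22α), was at 4.53, 4.62 and 4.32 in knockout hearts and at 4.67, 5.07 and 5.21 in dflox hearts. The groups did not overlap, and the difference of −0.50 (SE 0.169) did not pass the test (limma adjusted p = 0.200). The dimmer Tagln probe gave −0.19 at 2 months and −0.66 at 1 month, where the brighter gave −0.29, so the probes disagreed on the age at which the genotypes lay further apart. Lmod1 was at 1.02, 0.91 and 0.97 in knockout hearts and at 1.04, 1.05 and 1.43 in dflox hearts (−0.21). Smtn was higher in every knockout heart than in every dflox heart, at 3.15, 2.86 and 3.15 against 2.82, 2.86 and 2.72, though by 0.25 only and with knockout replicate 2 next to the highest dflox heart.

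Averaged over both ages 2 of 33 genes passed the test, Myocd and Lmod1, where 4.5% of all genes did, and 22 of 33 were below 0, where 61.1% of all genes were. Lmod1 fell by 0.37 (SE 0.0901, 1.29-fold, limma adjusted p = 0.0477), and this call held in 4 of 24 alternative analyses, with adjusted p between 0.0402 and 0.403. Of the 12 analyses that left out 1 heart, it held in the 1 without dflox 2-month replicate 1. Myocd kept its call in 21 of 24, with adjusted p between 0.00465 and 0.128, and lost it with median scaling and without knockout 1-month replicate 2 or replicate 3. Fbln1 (−0.42, limma adjusted p = 0.0618), Notch3 (−0.24, 0.0838), Mylk (−0.43, 0.108), Tagln (−0.39, 0.110) and Myh11 (−0.49, 0.116) came next and did not pass the test. Fbln1 was called in 4 of the 24 alternatives and Tagln in 2. Of the 7 smooth muscle genes, 6 were lower and 1 higher in knockout hearts in this comparison.

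**Figure D4:**
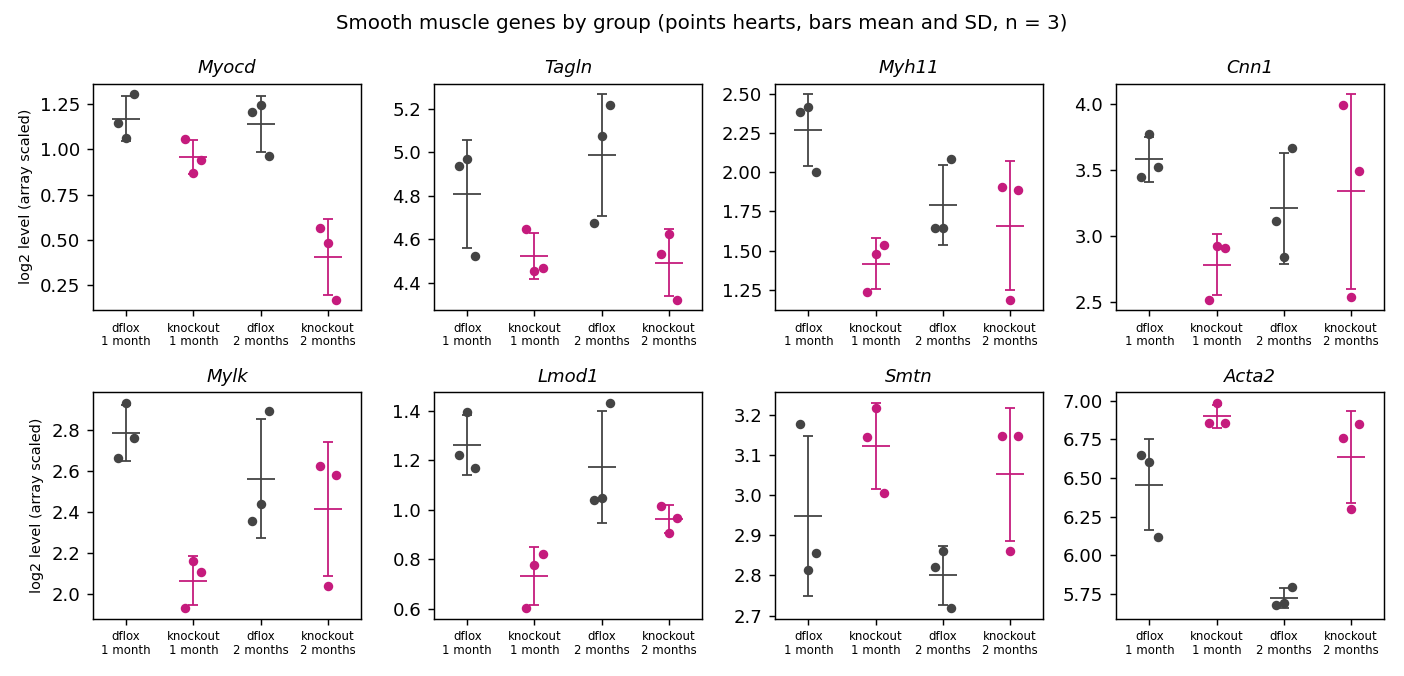
Log2 level of the 7 smooth muscle marker genes and of Acta2 by group; points are single hearts (grey dflox, pink knockout), and bars give the mean and SD of 3 hearts. Myocd is lowest in the 3 knockout hearts of 2 months (0.57, 0.48 and 0.17), and Acta2 is higher in knockout than in dflox hearts at both ages.

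Acta2, the smooth muscle α-actin, is no member of the list and ran the other way. This actin also marks activated fibroblasts and is made by cardiomyocytes of the fetal and stressed heart. It was at 6.76, 6.30 and 6.85 in knockout hearts and at 5.68, 5.69 and 5.80 in dflox hearts at 2 months. Acta2 rose 1.88-fold there (log2 difference 0.91, SE 0.172, limma adjusted p = 0.0225), and every knockout heart was above every dflox heart at each age. At 1 month the difference was 0.44 (limma adjusted p = 0.419).

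A wider list of 17 further smooth muscle genes, Acta2 among them, had 1 gene called higher and none lower at 2 months, where 2.31% of all genes were called, and 12 of 17 below 0, where 63% of all genes were. Averaged over the ages Acta2 rose and Csrp2, which encodes a smooth muscle LIM protein, fell by 0.50 (limma adjusted p = 0.0231). Csrp2 was at 3.94, 3.74 and 3.61 in knockout hearts and at 4.17, 4.29 and 4.68 in dflox hearts at 2 months, without overlap. Of 13 further pericyte genes tested, 12 were below 0 in the averaged comparison, where 61.1% of all genes were, and Ednra alone was called, where 4.5% of all genes were. Ednra, the endothelin receptor of smooth muscle and pericytes, was at 2.67, 2.53 and 2.63 in knockout hearts and at 3.18, 3.27 and 3.17 in dflox hearts at 1 month. At 2 months it was at 2.43, 2.65 and 2.02 in knockout hearts and at 2.85, 2.87 and 2.57 in dflox hearts, which overlapped. Averaged over the ages Ednra fell by 0.50 (SE 0.109, limma adjusted p = 0.0298). That average includes the age at which place and airway signal cannot be told apart from genotype.

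The fibroblast genes lay closer to 0 at 2 months than at 1 month, with 11 of 18 below 0 and a median of −0.08, against a median of −0.10 and 63% below 0 over all genes. With arrays scaled to their median, which shifts all genes alike, the fibroblast median was 0.04 and that of all genes 0.02, with 7 of 18 fibroblast genes below 0. Of the 31 member genes with all values, 2 did not overlap with knockout higher and 6 with knockout lower, where 6.58% and 11% of all genes did. Bgn, which encodes the small proteoglycan biglycan, was 1 of the 2 higher, at 1.38, 1.21 and 1.90 in knockout hearts and at 1.02, 1.17 and 1.15 in dflox hearts (0.38, SE 0.168, limma adjusted p = 0.310). Knockout replicate 3 lay well above the other two. Fbln1 differed by −0.22 and Fstl1, the secreted follistatin-like protein of stromal cells, by −0.20, each without overlap and without passing the test.

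Pdgfra (0.23), Tcf21 (0.20), Fbln2 (0.12) and Mgp (0.19, from 2 knockout hearts) were above 0 at 2 months. Gsn, the actin-severing gelsolin, was the lowest fibroblast gene at −0.28, followed by the periostin gene Postn at −0.27 (95% interval −0.68 to 0.13). Postn marks activated fibroblasts, and its level overlapped between genotypes, at 2.05, 2.50 and 2.36 in knockout hearts and at 2.64, 2.34 and 2.76 in dflox hearts. Thy1, the surface antigen Thy-1, and Vim, the intermediate filament vimentin, differed by −0.12 and −0.11 and overlapped.

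Among the TGF-β genes no genotype difference passed the test. Tgfb1 differed by 0.10 at 1 month and 0.13 at 2 months, Tgfb2 by 0.02 and 0.08, and Tgfb3 by −0.02 and 0.14, and the 6 intervals lay between −0.38 and 0.51. Ccn2, a matricellular protein induced by TGF-β, was at 4.72, 4.82 and 4.04 in knockout hearts and at 4.11, 4.54 and 4.14 in dflox hearts at 2 months. Its knockout hearts included both the highest levels and the lowest, and the difference was 0.26 (95% interval −0.18 to 0.70). Of 19 tested receptors and regulators of TGF-β signalling, none was called at either age, where 0.98% of all genes were at 1 month and 2.31% at 2 months. Averaged over the ages only Tgfbr3, the coreceptor betaglycan, was called, where 4.5% of all genes were. It fell by 0.55 (SE 0.122, limma adjusted p = 0.0309), on a dim probe at −3.54 to −3.90 in dflox and −3.93 to −4.66 in knockout hearts. None of the 5 further PDGF genes was called between genotypes, against the same shares of all genes.

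For the pericyte genes at 2 months, Notch3 levels were 1.76, 1.94 and 1.74 in knockout hearts and at 2.18, 2.07 and 2.03 in dflox hearts. The groups did not overlap, as at 1 month, and the difference was −0.28 (SE 0.0959, limma adjusted p = 0.212). Pdgfrb (−0.10), Rgs5 (−0.01, 95% interval −0.30 to 0.27) and Cspg4 (0.08) overlapped between genotypes. A brighter Rgs5 probe did not pass the filter, because spots without a usable value left no group complete. Its usable levels at 2 months were 3.94 in 1 dflox heart and 3.49 and 3.47 in knockout hearts. At 1 month they were 3.66 and 3.85 in dflox and 3.72 and 3.56 in knockout hearts. With so few values no difference is given for it, and the Rgs5 results rest on the dimmer probe.

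For the fibroblast and pericyte genes the median difference with age was wider than that between genotypes. From 1 to 2 months 32 of 33 genes were lower in dflox hearts, including 18 of 18 fibroblast genes and 4 of 4 in both the pericyte and TGF-β groups, where 42.3% of all genes were. In knockout hearts 23 of 33 were lower, 13 of them fibroblast genes, against 54.2% of all genes. Some markers of other cells were also mostly lower in dflox hearts, with 12 of 15 macrophage, 10 of 12 epicardial, 9 of 12 endothelial and 7 of 8 adipocyte genes. Of the cardiomyocyte markers 5 of 14 were lower, and of the atrial markers 5 of 9. In knockout hearts 13 of 15 macrophage, 7 of 12 endothelial, 5 of 12 epicardial and 1 of 8 adipocyte genes were lower. A fall in dflox hearts is thus not particular to the 33 genes. The fibroblast median was −0.35 in dflox and −0.21 in knockout hearts, against 0.05 and −0.02 over all genes. In dflox hearts 14 of 33 genes were lower in every 2-month than in every 1-month heart, against 8.62% of all genes, and none was higher, against 11.4%. These 14 were 10 fibroblast genes, 3 pericyte genes and Tgfb2, and no smooth muscle gene was among them. In knockout hearts 10 of 31 genes with all values were lower without overlap and 1, Lmod1, was higher, where 10.8% and 7.2% of all genes were. The count of fibroblast genes below 0 in dflox was 18 of 18 also with quantile normalization and with median scaling. It was 17 of 18 with slide as a fixed term and 16 of 18 with the airway covariate. Dflox replicates 2 and 3 lay on slide 2 at 1 month and on slide 3 at 2 months, and only replicate 1 of each age shared slide 1. Age and slide can therefore hardly be told apart in dflox hearts. With slide as a fixed term 10 of all genes were called with age in dflox, against 101 without it. The knockout arrays of each age lay on all 3 slides.

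Fstl1 was the 1 member that passed the age test, in both genotypes, where 0.553% of all genes did in dflox and 0.378% in knockout hearts. Its level was 4.65, 4.53 and 4.37 at 1 month and 3.70, 3.65 and 3.70 at 2 months in dflox hearts, and 4.42, 4.32 and 4.33 at 1 month and 3.39, 3.57 and 3.49 at 2 months in knockout hearts. All 6 hearts of 2 months lay below all 6 of 1 month. Fstl1 fell 1.78-fold in dflox (−0.83, SE 0.0987, limma adjusted p = 0.0115) and 1.84-fold in knockout hearts (−0.88, SE 0.0987, limma adjusted p = 0.00749). The difference between the 2 age effects was −0.05 (95% interval −0.36 to 0.26). Over 25 alternatives the dflox call held in 20 and the knockout call in 21. The dflox call was lost with slide as a fixed term (−0.93, adjusted p = 0.0544), and both calls with the airway covariate (−0.86, adjusted p = 0.0506, and −0.84, adjusted p = 0.0574) and when only the groups compared were fitted. It was also lost in dflox without 1-month replicate 1 or 2-month replicate 2, and in knockout without 1-month replicate 1 or replicate 3.

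**Figure D5:**
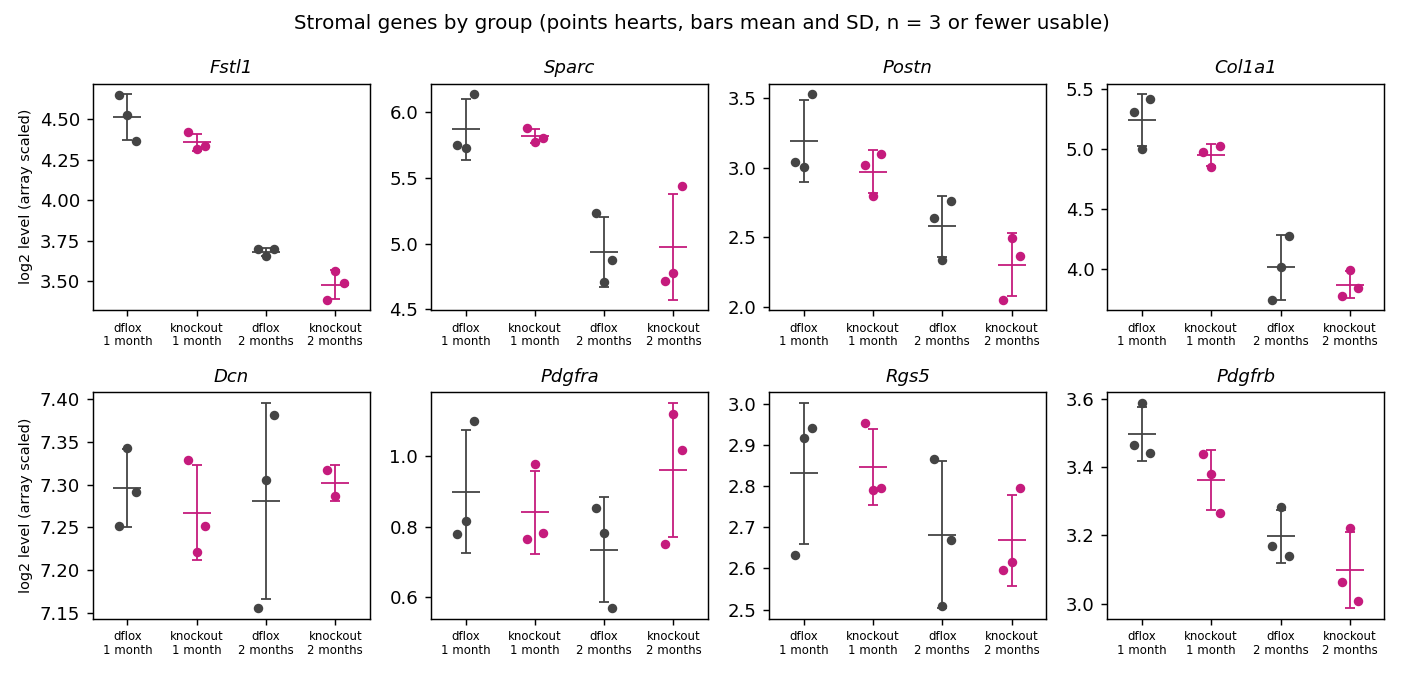
Log2 level of 6 fibroblast genes and the pericyte genes Rgs5 and Pdgfrb by group; points are single hearts (grey dflox, pink knockout), and bars give the mean and SD of the usable hearts. Fstl1, Sparc, Postn and Col1a1 are lower in 2-month than in 1-month hearts of both genotypes, whereas Dcn lies between 7.16 and 7.38 in all 11 hearts with a value.

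Sparc, which encodes the collagen-binding protein osteonectin, was at 5.75, 5.73 and 6.14 at 1 month and 5.23, 4.70 and 4.87 at 2 months in dflox hearts, and at 5.88, 5.77 and 5.80 and then 4.71, 4.78 and 5.44 in knockout hearts. The ages did not overlap in either genotype. The differences of −0.94 and −0.84 did not pass the test on the brighter probe (limma adjusted p = 0.0758 and 0.123). The dimmer probe gave −0.78 and −0.97, and the mean over the probes passed the test in each genotype, at −0.86 (adjusted p = 0.00978) and −0.91 (adjusted p = 0.00879).

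Postn was −0.61 in dflox and −0.67 in knockout hearts and Thy1 −0.56 and −0.46, each without overlap between ages in either genotype and without passing the test. Vim differed by −0.36 and −0.33 in the same way. Fn1 differed by −0.69 in dflox and −0.28 in knockout hearts and Bgn by −0.54 and 0.09, with ages that overlapped in knockout hearts. The genotype difference of these age effects was 0.41 for Fn1 and 0.63 for Bgn, and neither passed the test. Dcn and Gsn were near 0 with age in both genotypes, at −0.01 and −0.00 in dflox hearts and 0.03 and −0.04 in knockout hearts.

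A wider list of 28 fibroblast and collagen genes had 28 below 0 with age in dflox hearts, where 42.3% of all genes were. In knockout hearts it had 24 below 0, where 54.2% of all genes were. Of the list 5 genes were called in dflox and 2 in knockout hearts, where 0.553% and 0.378% of all genes were. The 5 were Col1a1, Col1a2 and Col5a1, which encode fibrillar collagen chains, and the microfibril genes Mfap4 and Mfap5; apart from Col1a1 they are named here because their values were seen to pass. Col1a1 fell by 1.23 in dflox (limma adjusted p = 0.0131) and by 1.08 in knockout hearts (0.0274). Its level was 5.31, 5.0 and 5.41 at 1 month and 3.74, 4.01 and 4.28 at 2 months in dflox hearts, with knockout hearts at 4.97, 4.84 and 5.02 and then 3.77, 3.99 and 3.84. Col5a1 was the other gene called in knockout hearts, falling by 0.91 in dflox and 0.74 in knockout hearts. Pdgfrl, a PDGF receptor-like gene, fell by 0.62 and 0.66 in the 2 genotypes.

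The mural genes were less uniform with age. Pdgfrb was at 3.46, 3.59 and 3.44 at 1 month and 3.17, 3.28 and 3.14 at 2 months in dflox hearts (−0.30, limma adjusted p = 0.212), and differed by −0.26 in knockout hearts, without overlap in either genotype. Cspg4 differed by −0.33 and −0.14 and Rgs5 by −0.15 and −0.18. The smooth muscle median was −0.15 in dflox and 0.23 in knockout hearts, and 3 of 7 genes were below 0 in knockout hearts. The knockout values above 0 were Cnn1 (0.56), Mylk (0.35), Myh11 (0.24) and Lmod1 (0.23), and those below were Myocd (−0.55), Smtn (−0.07) and Tagln (−0.03). With the airway covariate the smooth muscle median was 0.00 in dflox and −0.03 in knockout hearts. The age comparisons in the 2 genotypes share no hearts, while each shares its hearts with the genotype comparisons. The change of the genotype effect with age was called by limma for no member and for 0 of 18257 genes, 0% in all. At an unadjusted p under 0.05 there were 3 members, Bgn, Myh11 and Myocd, against 3.53% of all genes.

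RefSeq promoter windows of 300 bases (250 before to 50 after the transcript start, GRCm38.p6) were found for 21 of the 33 genes, 25 windows in all. Windows on chromosome 18, where Pdgfrb lies, were left out. The CArG box, the site of serum response factor, was searched on both strands in its strict form only (CC, a fixed run of A or T, GG). None of the 25 windows held it, where 1.63% of 32851 windows did. At that share 25 windows are too few to set the members apart from other genes. Sites outside the windows, and members without a window, were not searched.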

How the data were processed

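RNA of 12 whole hearts was measured on Agilent one-colour whole mouse genome arrays. Per the file headers, the authors' scanner files were made with Agilent Feature Extraction 9.5.3.1 (9.5 per the submitters' processing notes) and give each spot's processed signal, a background-subtracted intensity on a linear scale. The value table of the series, also deposited, holds that same intensity. Control and outlier spots were left out, log2 intensity minus each array's 75th percentile was taken, and spots of a probe were averaged. A probe was kept where every one of the 3 arrays in some group read it well above background (26979 of 41174), and the brightest kept probe represented its gene. A limma 3.58.1 model (R 4.3.3) of the 4 group means used all 12 arrays, tests were two-sided, and calls needed an adjusted p (Benjamini-Hochberg, over 18257 genes) under 0.05. Intervals are 95% limma intervals, and no test of 3 hearts against 3 by exact permutation could go below 0.10, so none is given. On simulated data, 56.7% of genes changed by a log2 of 1 were called at 2 months and 4.48% of those changed by 0.5. Each array is a separate animal, as the design text gives its numbers in mice. Replicate numbers did not pair the hearts. Alternatives were another normalization, scaling, background correction, filter, probe rule, sample set, slide, place, airway covariate, replicate block and leaving out each heart. Every member is reported; further genes were named from wider lists if called between genotypes or among the 4 smallest p of a list. Members and lists were chosen with earlier results of these data known.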

Additional observations from a re-analysis of the deposited data

How the results depend on the processing

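No comparison changed direction in its calls. At 2 months the 1 member called, Myocd, became 0 with median scaling, with no filter on dim probes and with only the groups compared fitted. Averaged over the ages the 2 calls became 1 (Myocd) with quantile normalization, no filter, the series matrix values, place on the slide or the airway mean as a covariate, and the replicate block, and 0 with median scaling. Other settings changed which genes were called: Fbln1, Myocd and Tagln with normexp background correction, Fbln1 and Myocd with slide as a fixed term, Fbln1, Lmod1 and Myocd with slide as a random block, Lmod1, Myocd and Tagln without dflox 2-month replicate 1, and Fbln1 alone without knockout 1-month replicate 2. Of the age calls, the 1 in dflox became 0 with only the groups compared, slide as a fixed term or the airway covariate, and the 1 in knockout hearts became 0 with only the groups compared or the airway covariate; with the mean over a gene's probes they became 3 (Fn1, Fstl1, Sparc) and 2 (Fstl1, Sparc), where the Fn1 mean includes a probe that was not above background in most hearts. Leaving out each heart in turn gave 0 to 0 members at 1 month, 0 to 1 at 2 months, 0 to 3 averaged over the ages, 0 to 2 with age in dflox and 0 to 1 with age in knockout hearts; the averaged count was 0 without knockout 1-month replicate 3. The cause of these changes was not tested. Over all genes the calls ran from 9 (place covariate) to 232 at 1 month, 97 to 452 at 2 months, 257 to 973 averaged, 0 to 175 with age in dflox and 0 to 83 in knockout hearts, against 179, 422, 821, 101 and 69.

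Same-numbered hearts did not deviate together: 4 of 12 pairs correlated above 0.1 (from −0.30 to 0.55), so the replicate block is given only here, and it lost 1 averaged call (Lmod1, adjusted p = 0.0803) and no other. Median scaling moved the median of all genes by more than 0.1 at 2 months (from −0.10 to 0.02) and with age in dflox (from 0.05 to −0.08). The number of hearts limits precision: a log2 difference of 0.5 was seldom called on simulated data, so members that did not pass the test are not shown to be equal.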

Other observations

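Several members were read by more than 1 probe, and some probes disagreed. The dimmest of the 3 Cspg4 probes, at −2.40 to −5.18 across hearts, gave 1.07 at 1 month and −0.33 at 2 months, where the other 2 gave −0.11 and −0.17 and then 0.08 and 0.10; none passed the test. The dimmest of the 3 Fn1 probes exceeded background clearly on 3 of 3 dflox arrays of 1 month, 1 of 3 dflox arrays of 2 months and 0 of 3 knockout arrays of either age, so no difference is given for it. The 3 Cdh11 probes gave −0.14, 0.28 and −0.08 at 2 months. The dimmer Sparc probe was lower in knockout hearts at both ages (−0.30 and −0.49), where the brighter gave −0.05 and 0.04.

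Of the marker lists of other cell types, most leaned below 0 at 1 month, and that of macrophages leaned above: 1 of 15 macrophage genes was below 0 in knockout hearts at each age, where 50.3% and 63% of all genes were. Their medians were 0.23 and 0.22, and 0 of 15 were called at either age, where 0.98% and 2.31% of all genes were. Averaged over the ages 1 of them, the Fc receptor gene Fcgr1, was called, where 4.5% of all genes were, and rose by 0.35 (limma adjusted p = 0.0433). The mean level of 14 macrophage markers at 1 month was 1.45, 1.45 and 1.52 in knockout hearts, all above the 1.11, 1.32 and 1.34 of dflox hearts.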
